A study of Homo sapiens with 6 samples.

Results

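The 10 genes described here encode dual-specificity phosphatases (DUSP) that act on MAP kinases. They were taken by symbol from the count tables as DUSP1, DUSP2, DUSP4, DUSP5, DUSP6, DUSP7, DUSP8, DUSP10, DUSP14 and DUSP16, and all 10 were among the 20683 symbols listed. Messenger RNA was counted in HT-1080, an established human fibrosarcoma line that carries an activating mutation of the RAS gene NRAS. Cells had either the compound SLV-8472-01, which the series describes as an IRAK4 inhibitor, at a labelled 5 mM, or its solvent as 0.1% DMSO, for 4 h in both groups. The label leaves it unclear if 5 mM refers to the culture medium or to a stock solution. Each group had 3 libraries, described as biological replicates of this 1 line, and all cells were grown with serum before treatment.

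MAP kinases are switched on by phosphorylation of a threonine and a tyrosine in their activation loop, and these phosphatases remove both phosphates. The ERK kinases carry growth factor and RAS signals, while the JNK and p38 kinases answer stress and inflammatory signals, including those passed on by IRAK4. Many DUSP genes are themselves transcribed in response to the kinases they switch off, which makes them feedback inhibitors. DUSP1, DUSP2 and DUSP4 are inducible nuclear enzymes of broad specificity. DUSP5 in the nucleus and DUSP6 and DUSP7 in the cytoplasm prefer ERK, and DUSP8, DUSP10 and DUSP16 prefer JNK and p38. DUSP14 is a small atypical member that lacks the kinase-binding domain of the others.

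The promoters of 3 members are shown because DUSP1 had the largest rise and DUSP10 the only fall, and because DUSP8 holds more copies of the cyclic AMP response element (CRE) than DUSP1. Each is the run of 250 bases before a RefSeq transcription start on GRCh38.p14, read 5′ to 3′, with the full CRE (TGACGTCA) in capitals. The DUSP10 window is the first of the 2 starts listed for that gene.
DUSP1, chr5:172771196-172771445, minus strand: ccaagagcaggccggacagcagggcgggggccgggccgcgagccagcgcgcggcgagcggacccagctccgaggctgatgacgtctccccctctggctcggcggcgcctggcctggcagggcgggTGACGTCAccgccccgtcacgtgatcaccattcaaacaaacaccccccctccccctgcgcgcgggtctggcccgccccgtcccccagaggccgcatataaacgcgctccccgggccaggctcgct
DUSP8, chr11:1572272-1572521, minus strand: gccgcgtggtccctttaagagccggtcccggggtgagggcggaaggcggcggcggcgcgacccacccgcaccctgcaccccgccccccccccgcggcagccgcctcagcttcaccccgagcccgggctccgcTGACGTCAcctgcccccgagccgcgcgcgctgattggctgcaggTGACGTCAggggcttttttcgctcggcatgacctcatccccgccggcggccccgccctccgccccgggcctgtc
DUSP10, chr1:221742090-221742339, minus strand: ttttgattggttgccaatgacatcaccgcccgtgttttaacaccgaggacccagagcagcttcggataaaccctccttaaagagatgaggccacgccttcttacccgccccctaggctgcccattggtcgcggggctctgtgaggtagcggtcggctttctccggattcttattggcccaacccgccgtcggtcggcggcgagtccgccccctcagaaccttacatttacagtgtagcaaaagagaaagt
The CRE is bound by CREB and ATF factors. Windows were found for 8 of the 10 members, 9 windows in all. None was found for DUSP4 and DUSP5, whose promoters were not searched. DUSP1 held 1 CRE, with its first base at -125 from the start, DUSP8 held 2, at -118 and -74, and DUSP10 held none in either window. Of 35116 RefSeq windows of this length, 1.65% held a CRE. Among 319 tested genes with a CRE, 6.9% rose and 14.1% fell with the inhibitor. For the 8918 tested genes with any window these shares were 9.39% and 10.6%. Whether a CRE bears on the change of a member was not tested. An NF-kB site occurred once in the DUSP7 window, at -158, and in 9.96% of all windows. No member window held the AP-1 site TGACTCA, the ATF4 and C/EBP element TGATGNAA or a CArG box, which 4.2%, 3.14% and 1.16% of all windows held. Of tested genes with an AP-1 site, 13.4% rose and 5.35% fell. With the ATF4 and C/EBP element these shares were 18.0% and 7.77%, and with a CArG box 14.9% and 7.46%. With an NF-kB site they were 10.8% and 8.62%. Both strands were searched, and no match of 1 motif overlapped a match of another in these windows. A match describes the letters only and does not show binding.

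Libraries held 7644478 to 15336351 counts, and the inhibitor libraries were the 3 smallest. Of 11391 genes that passed the low-count filter, 1130 rose and 1168 fell with the inhibitor (edgeR quasi-likelihood test, Benjamini-Hochberg adjusted p under 0.05). With library totals as the scaling, 831 rose and 1714 fell. Without DMSO replicate 2, 684 rose and 721 fell. The labelled fibrosarcoma type was checked with 8 mesenchymal markers, of which 7 were tested, 4 rose and 0 fell. VIM was at 6019 ± 1072 (inhibitor) and 5648 ± 546 CPM (DMSO), and THY1 had means under 0.1 CPM in both groups. The 5 epithelial markers summed to 0.25 to 0.67 CPM and the 5 immune markers to 0.17 to 0.98 CPM over the 6 libraries, with CDH1, PTPRC and CD3E at 0 in each. The 5 endothelial markers summed to 3.22 to 4.24 CPM with the inhibitor and 2.78 to 3.24 CPM with DMSO. Their part in the results was not tested.

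Of the 10 DUSP genes, 8 passed the filter. DUSP1 and DUSP5 rose with the inhibitor, DUSP10 fell, and 5 others did not pass the test. In libraries thinned to the smallest total these 3 calls stood, with log2 fold changes of 1.36 for DUSP1, 0.89 for DUSP5 and -0.43 for DUSP10. The background was 20.2% of all tested genes called in either direction, 9.92% upward and 10.3% downward. The median log2 fold change of the 8 tested members was -0.11, and that of all tested genes was 0.00344. Groups did not overlap for 4 of the 8 (DUSP1, DUSP5, DUSP10 and DUSP14), against 36.3% of all tested genes. Values are normalised counts (CPM, counts scaled to library size with TMM factors), and log2 fold changes are inhibitor minus DMSO. Each count reports an amplified part of a transcript, and parts can amplify unequally, so a gene is compared between groups and not with the level of another gene. In bulk RNA, fewer cells with a transcript and less of it in each cell cannot be told apart.

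**Figure D1:**
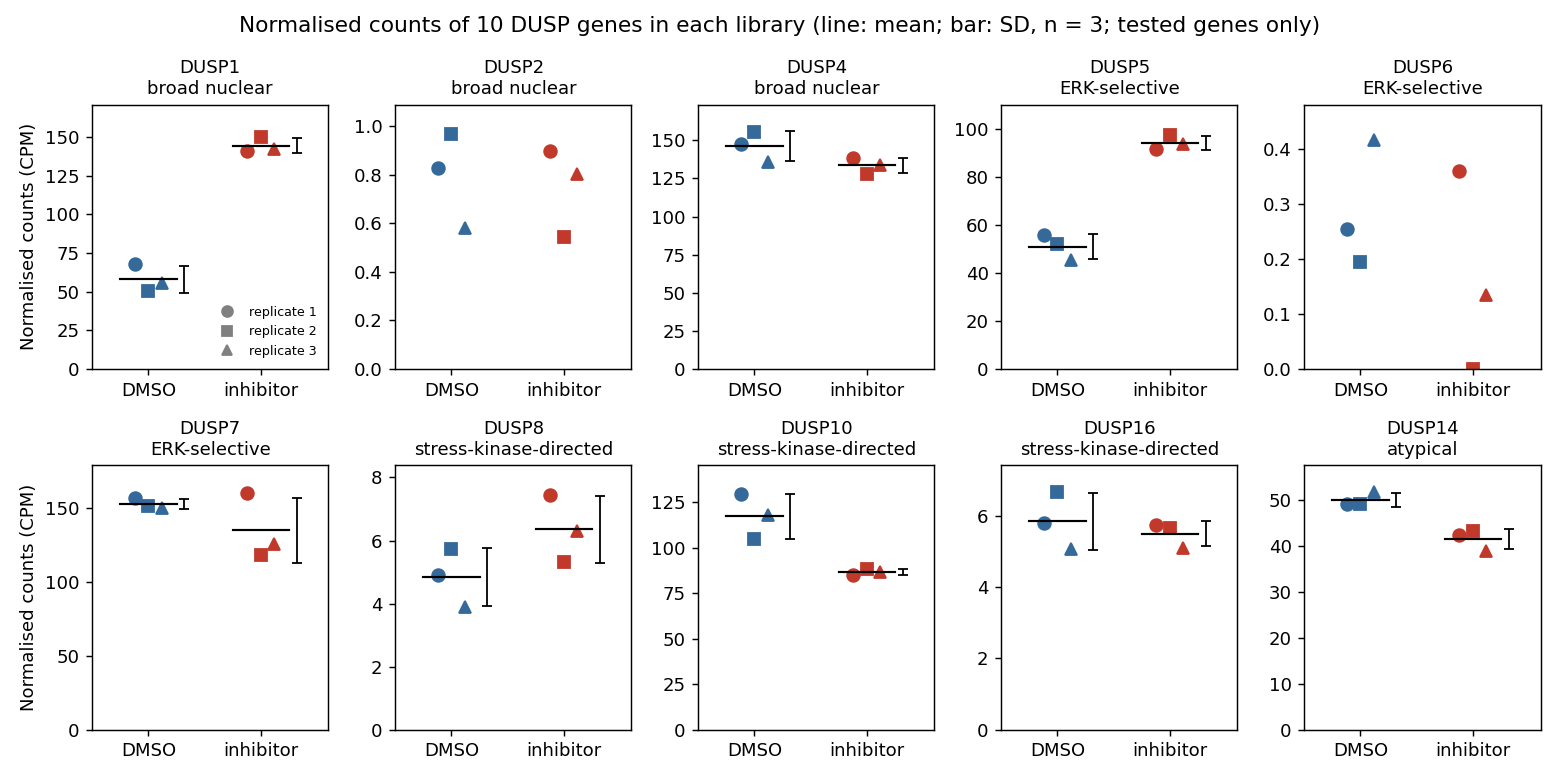
Normalised counts (CPM, y axes from 0, a scale for each gene) of the 10 DUSP genes in the 3 DMSO and 3 inhibitor libraries, with mean and SD for the 8 tested genes and marker shapes for replicate numbers. Inhibitor libraries lie above every DMSO library for DUSP1 and DUSP5 and below every one for DUSP10 and DUSP14, while DUSP2 and DUSP6 stay under 1 CPM.

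DUSP1, also known as MKP-1, is an immediate early gene whose nuclear enzyme acts on p38, JNK and ERK. Its counts were 1569, 1381 and 1062 in inhibitor replicates 1 to 3 and 1065, 785 and 665 in DMSO replicates 1 to 3. Scaled to library size this was 141, 150 and 142 CPM with the inhibitor and 67.8, 50.7 and 55.3 CPM with DMSO. The lowest inhibitor library was above the highest DMSO library by more than the spread within either group. The mean rose from 57.9 ± 8.85 to 144 ± 5.11 CPM (SD, n = 3), which is 2.49-fold. The log2 fold change was 1.32 ± 0.11 (SE) with an adjusted p = 2.43e-08 (edgeR quasi-likelihood test), and its size ranked 122 among the 11391 tested genes.

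DUSP4, a relative of DUSP1 that acts on ERK and JNK in the nucleus, was not called. It was at 138, 128 and 134 CPM with the inhibitor and 147, 156 and 136 CPM with DMSO, and the groups overlapped. Its log2 fold change was -0.13 ± 0.10 (95% interval -0.34 to 0.08, adjusted p = 0.383 in the edgeR test), so that its interval lies below that of DUSP1 (1.08 to 1.55). The count ratio of DUSP1 to DUSP4 within a library, which does not depend on scaling, was 1.02 to 1.17 with the inhibitor and 0.325 to 0.46 with DMSO. DUSP2, known as PAC-1 and best known from activated lymphocytes, reached 10, 5 and 6 counts in the inhibitor group and 13, 15 and 7 in the DMSO group, at most 0.97 CPM, and was not tested. Within the inducible nuclear class, 1 of 3 members rose, 1 did not pass the test and 1 had too few counts.

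DUSP5, the nuclear enzyme that removes phosphate from ERK and also holds ERK in the nucleus, rose. Its counts were 1023, 897 and 699 in the inhibitor libraries and 875, 808 and 545 in the DMSO libraries. This gave 91.7, 97.6 and 93.7 CPM with the inhibitor and 55.7, 52.2 and 45.3 CPM with DMSO, without overlap. The mean rose 1.84-fold, from 51.1 ± 5.29 to 94.3 ± 2.98 CPM (SD, n = 3), with a log2 fold change of 0.88 ± 0.11 (SE, adjusted p = 4.90e-06, edgeR test). The pseudogene DUSP5P1, whose reads could be confused with those of DUSP5, had at most 1 count in any library.

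DUSP7, a cytoplasmic ERK phosphatase, was at 160, 118 and 126 CPM with the inhibitor and 157, 152 and 150 CPM with DMSO. Inhibitor replicate 1 was the highest of the 6 libraries and inhibitor replicate 2 the lowest, so the SD was 22.3 CPM in the inhibitor group and 3.52 CPM in the DMSO group. The log2 fold change was -0.18 ± 0.11 (95% interval -0.41 to 0.05, adjusted p = 0.28, edgeR test). Without inhibitor replicate 1 it was -0.32 with an adjusted p = 0.0478, which would count as a fall.

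DUSP6, or MKP-3, is the cytoplasmic phosphatase most often read as a marker of ERK activity. Its counts were 4, 0 and 1 in the inhibitor libraries and 4, 3 and 5 in the DMSO libraries, at most 0.416 CPM, near the floor of 3 counts (0.191 to 0.402 CPM depending on the library), and no fold is given. Other pathway genes were as low: MAP2K2, which encodes the ERK kinase MEK2, had no count in the inhibitor libraries and 0.13 ± 0.06 CPM with DMSO, and MAPK8, which encodes JNK1, was at 0.38 ± 0.18 CPM with the inhibitor and 0.59 ± 0.15 CPM with DMSO. Little mRNA and poor amplification of the targeted part cannot be told apart here. The GENCODE 29 annotation places an antisense gene over exons of DUSP6 and no other gene over exons of the remaining 9 members.

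DUSP10, or MKP-5, prefers p38 and JNK and was the only member that fell. Its counts were 947, 813 and 646 in the inhibitor libraries and 2034, 1622 and 1419 in the DMSO libraries. These were 84.9, 88.4 and 86.6 CPM with the inhibitor and 129, 105 and 118 CPM with DMSO, so every inhibitor library lay below every DMSO library. The mean fell from 117 ± 12.4 to 86.6 ± 1.76 CPM (SD, n = 3), to 0.738 of the DMSO level. The log2 fold change was -0.44 ± 0.11 (SE, adjusted p = 0.00551, edgeR test), smaller than the median absolute change of 0.535 among all called genes.

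The other stress-kinase-directed members had few counts. DUSP8, which is best known from the nervous system and heart, was counted 83, 49 and 47 times in the inhibitor libraries and 77, 89 and 47 times in the DMSO libraries, or 7.44, 5.33 and 6.3 against 4.9, 5.75 and 3.91 CPM. Its groups overlapped, and its log2 fold change was 0.39 ± 0.20 (95% interval -0.03 to 0.81, adjusted p = 0.188, edgeR test). DUSP16, or MKP-7, which acts on JNK, was counted 64, 52 and 38 times in the inhibitor libraries and 91, 103 and 61 times in the DMSO libraries, or 5.74, 5.66 and 5.09 against 5.79, 6.65 and 5.07 CPM. Its log2 fold change was -0.09 ± 0.19 (95% interval -0.48 to 0.31, adjusted p = 0.786), and its sign turned in thinned libraries and without DMSO replicate 2. At these counts neither gene can be said to have kept its level, since both intervals also hold changes of 0.3 on the log2 scale.

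DUSP14, the atypical member, was at 42.4, 43.2 and 39 CPM with the inhibitor and 49.1, 49.1 and 51.7 CPM with DMSO. The groups did not overlap, but the log2 fold change of -0.26 ± 0.11 (95% interval -0.49 to -0.04) had an adjusted p = 0.0877 in the edgeR test. With library totals as the scaling the adjusted p was 0.0313, which would count as a fall.

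**Figure D2:**
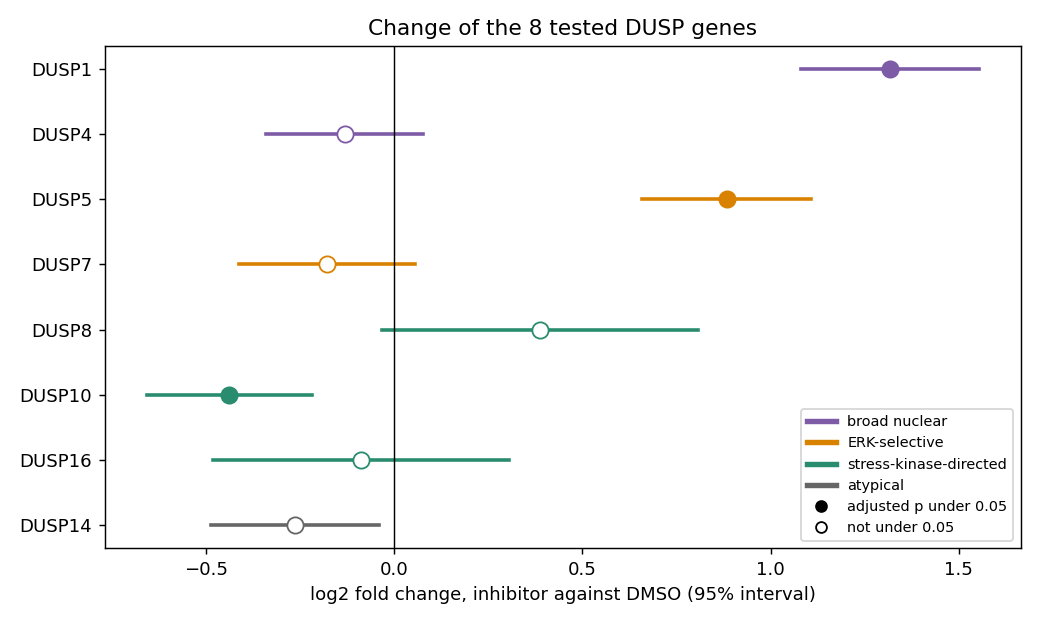
Log2 fold change of the 8 tested DUSP genes (x axis, points) with 95% intervals (lines), coloured by substrate class, with filled points for an adjusted p under 0.05. DUSP1 and DUSP5 lie to the right of 0 and DUSP10 to the left, and each of the classes with more than 1 tested gene spans both sides of 0.

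The ERK-selective and stress-kinase-directed members were set against each other within each library. The measure was the mean log2 CPM of DUSP5 and DUSP7 minus that of DUSP8, DUSP10 and DUSP16. It was 2.96, 2.93 and 2.92 with the inhibitor and 2.57, 2.46 and 2.6 with DMSO, without overlap. The group means were 2.94 ± 0.02 and 2.55 ± 0.07 (SD, n = 3), a shift of 0.39 on the log2 scale toward the ERK-selective members. No p is given for a score over chosen genes. The shift rested on single genes: it was 0.20 without DUSP10 and -0.15 without DUSP5, both tried after the values were seen. With DUSP6 included, as happens when low counts are not filtered, it was 0.08. Both classes held estimates of either sign: DUSP5 above and DUSP7 below 0 among the ERK-selective genes, with intervals that do not overlap, and DUSP8 above and DUSP10 below 0 among the stress-kinase-directed genes, also with intervals that do not overlap.

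Count ratios between 2 members need no scaling, and those of an ERK-selective to a stress-kinase-directed member did not all move the same way. The ratio of DUSP5 to DUSP10 was 1.08, 1.1 and 1.08 in the inhibitor libraries and 0.43, 0.498 and 0.384 in the DMSO libraries. DUSP5 to DUSP8 and DUSP5 to DUSP16 were also higher with the inhibitor, without overlap. The ratio of DUSP7 to DUSP10 was 1.89, 1.34 and 1.46 with the inhibitor and 1.21, 1.45 and 1.27 with DMSO, and these overlapped. DUSP7 to DUSP16 overlapped as well. DUSP7 to DUSP8 went the other way without overlap, at 20 to 22.2 with the inhibitor and 26.4 to 38.4 with DMSO. Within the ERK class, DUSP5 to DUSP7 was 0.572 to 0.824 with the inhibitor and 0.302 to 0.355 with DMSO. DUSP1 and DUSP5, the 2 genes that rose, did not rise equally, since their ratio was 1.52 to 1.54 with the inhibitor and 0.972 to 1.22 with DMSO.

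**Figure D3:**
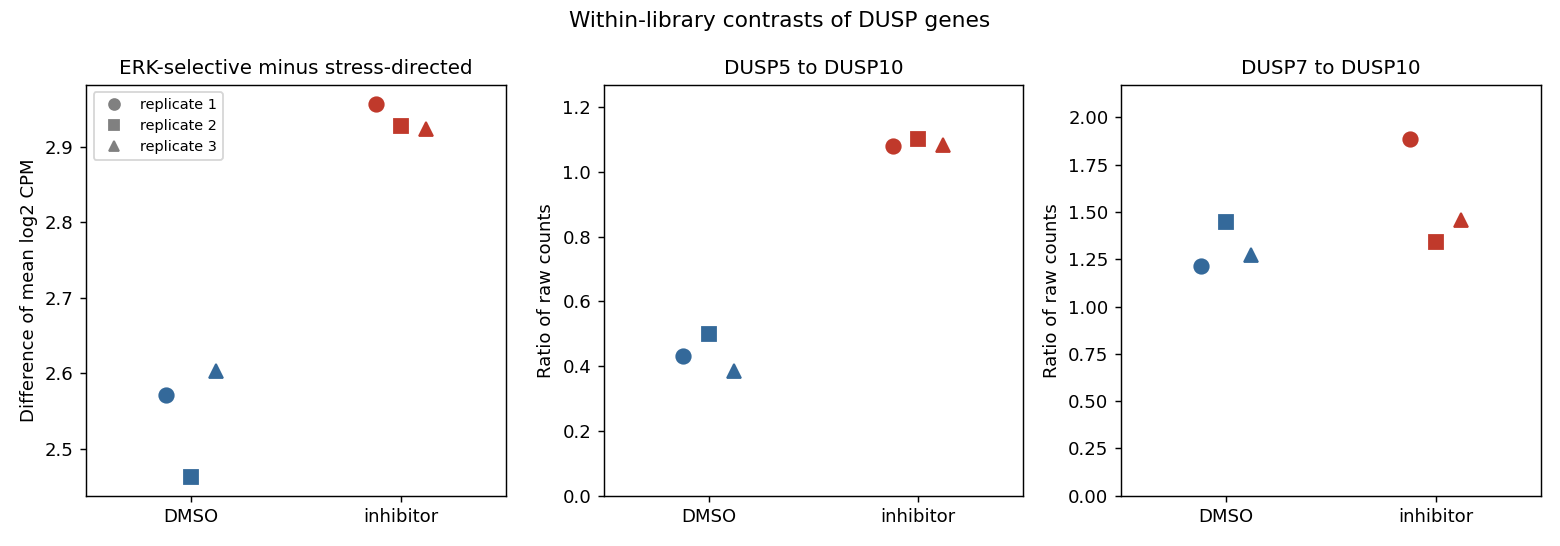
Contrasts taken within each of the 6 libraries: left, mean log2 CPM of DUSP5 and DUSP7 minus that of DUSP8, DUSP10 and DUSP16; middle and right, raw count ratios of DUSP5 and of DUSP7 to DUSP10 (axes from 0). The inhibitor libraries stand above the DMSO libraries in the left panel (2.92 to 2.96 against 2.46 to 2.6) and in the middle panel, and overlap them in the right panel.

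Other phosphatases were given by 2 lists. Of 16 other genes of the dual-specificity family, 9 were tested and none was called in the edgeR test, with a median log2 fold change of 0.08. Over all tested genes, 20.2% were called in either direction. Of the 9, 1 had an unadjusted p under 0.05 in the edgeR test, as had 3801 of all 11391 tested genes. DESeq2 and limma voom called 0 of the 9. The smallest p values were those of STYXL1, a catalytically inactive relative (0.43 ± 0.15, unadjusted p = 0.0108 and adjusted p = 0.0526), and DUSP28 (0.56 ± 0.37, unadjusted p = 0.14 and adjusted p = 0.299). STYXL1 counted as a rise without inhibitor replicate 1 (adjusted p = 0.0114), with the replicate block (0.0326) and with no filter on low counts (0.0297). Of 10 other phosphatases that act on MAP kinases or their activators, 7 were tested, 2 fell and 0 rose. Over all tested genes, 10.3% fell and 9.92% rose. PPP2R1B, a scaffold subunit of protein phosphatase 2A, fell by 0.39 on the log2 scale (SE 0.11, adjusted p = 0.0128) and PPM1A, a phosphatase that acts on p38, by 0.37 (SE 0.12, adjusted p = 0.0305). PPP2R1B was no longer called when inhibitor replicate 1 (adjusted p = 0.0524) or DMSO replicate 2 (0.0718) was left out. PPM1A was no longer called when inhibitor replicate 1 (adjusted p = 0.0824), inhibitor replicate 3 (0.0802), DMSO replicate 1 (0.0537) or DMSO replicate 2 (0.136) was left out.

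The kinase cascades on which these phosphatases act were also given by lists, the first for the ERK cascade. Of 15 listed, 12 were tested, 1 rose and 1 fell, with a median log2 fold change of -0.02. Among all tested genes 9.92% rose and 10.3% fell, or 20.2% in either direction. MKNK2, a kinase downstream of ERK and p38 that phosphorylates the translation factor eIF4E, rose from 155 ± 7.34 to 258 ± 22.7 CPM (0.74 ± 0.10, adjusted p = 2.31e-05). RPS6KA1, which encodes the ERK-activated kinase RSK1, fell from 12.7 ± 1.67 to 6.92 ± 1.5 CPM (-0.87 ± 0.18, adjusted p = 0.00142). MAPK3, a gene of the ERK family, was not called (0.01 ± 0.12, named with its value known).

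Of 33 genes of the JNK and p38 cascades, 29 were tested, 2 rose and 4 fell, with a median log2 fold change of -0.04, where 9.92% of all genes tested rose and 10.3% fell. GADD45B and GADD45A, small stress-induced activators of the upstream kinase MAP3K4, rose by 0.84 ± 0.10 and 0.49 ± 0.12. MAPK14, the gene of p38 alpha, fell from 38.6 ± 4.49 to 25.2 ± 2.78 CPM (-0.62 ± 0.13, adjusted p = 0.00128), and MAP3K3, an upstream kinase of these cascades, fell by 0.70 on the log2 scale. The other p38 genes, MAPK11 (0.43 ± 0.16), MAPK12 (-0.04 ± 0.11) and MAPK13 (0.42 ± 0.38), were not called, and are named with their values known. MAP2K3, which encodes an activator of p38, also fell and is named after its value was seen (-0.43 ± 0.12). MAP2K4, an activator of JNK and p38, fell by 0.47 on the log2 scale (SE 0.15, adjusted p = 0.0329). It was not called once inhibitor replicate 1 (adjusted p = 0.156), inhibitor replicate 3 (0.0598), DMSO replicate 1 (0.172) or DMSO replicate 2 (0.0636) was left out. GADD45A was not called without DMSO replicate 2 (adjusted p = 0.0548), where 1 gene of the list rose.

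Genes commonly read as outputs of ERK rose in part. Of 16 listed, 15 were tested, 6 rose and 0 fell, with a median log2 fold change of 0.30. The shares over all tested genes were 9.92% upward and 10.3% downward. Like the others, this list was chosen with earlier results of these data known. ETV1, named after its value was seen, had the lowest estimate of the list, -0.62 ± 0.22 (adjusted p = 0.0517, edgeR test), and was not called. EGR1, an early growth response factor, rose from 1.29 ± 0.32 to 6.09 ± 1.58 CPM (2.23 ± 0.27), the receptor gene EPHA2 from 323 ± 16.6 to 572 ± 25.02 CPM (0.82 ± 0.10), and EPHA4 by 0.59 ± 0.17. EPHA4 was not called once inhibitor replicate 2 (adjusted p = 0.0936) or DMSO replicate 2 (0.0608) was left out. Other outputs that serve as feedback inhibitors like the DUSP genes, chosen after their values were seen, did not pass the test. SPRY2 was at 0.07 ± 0.11, SPRED1 at -0.29 ± 0.11 and SPRED2 at 0.29 ± 0.10 (adjusted p = 0.672, 0.0742 and 0.056, edgeR test). With library totals as the scaling, 3 genes of this list fell.

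Transcription factors and proteins that bind messages were given by 2 more lists, and their binding to DUSP promoters or messages was not tested. Of 17 stimulus-regulated transcription factor genes, 14 were tested, 4 rose and 0 fell, with a median log2 fold change of 0.05. For both lists the shares over all tested genes were 9.92% upward and 10.3% downward. FOSB (1.52 ± 0.34), ATF3 (1.47 ± 0.22) and ETS2 (0.62 ± 0.10) had the largest rises, and JUNB (0.44 ± 0.11) is named after its value was seen. FOSB had few counts, 36, 31 and 12 in the inhibitor libraries and 12, 19 and 11 in the DMSO libraries. ATF3 was also low, at 2.29 ± 0.32 CPM with DMSO and 6.33 ± 0.78 CPM with the inhibitor. CREB1 and SRF, which bind the CRE and the CArG box and were picked out with their values known, were at -0.08 ± 0.12 and 0.03 ± 0.12 and were not called. Of 8 genes for proteins that bind AU-rich elements, through which DUSP1 mRNA is known to be kept short-lived, 1 rose and 1 fell, with a median of -0.13. ZFP36L1, a decay factor, rose by 0.64 ± 0.12 (105 ± 1.4 to 164 ± 36.2 CPM), and TIAL1, a translational repressor, fell by 0.47 on the log2 scale. ZFP36, a decay factor known to act on DUSP1 mRNA and chosen after its value was seen, was at 0.07 ± 0.15 (adjusted p = 0.799).

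**Figure D4:**
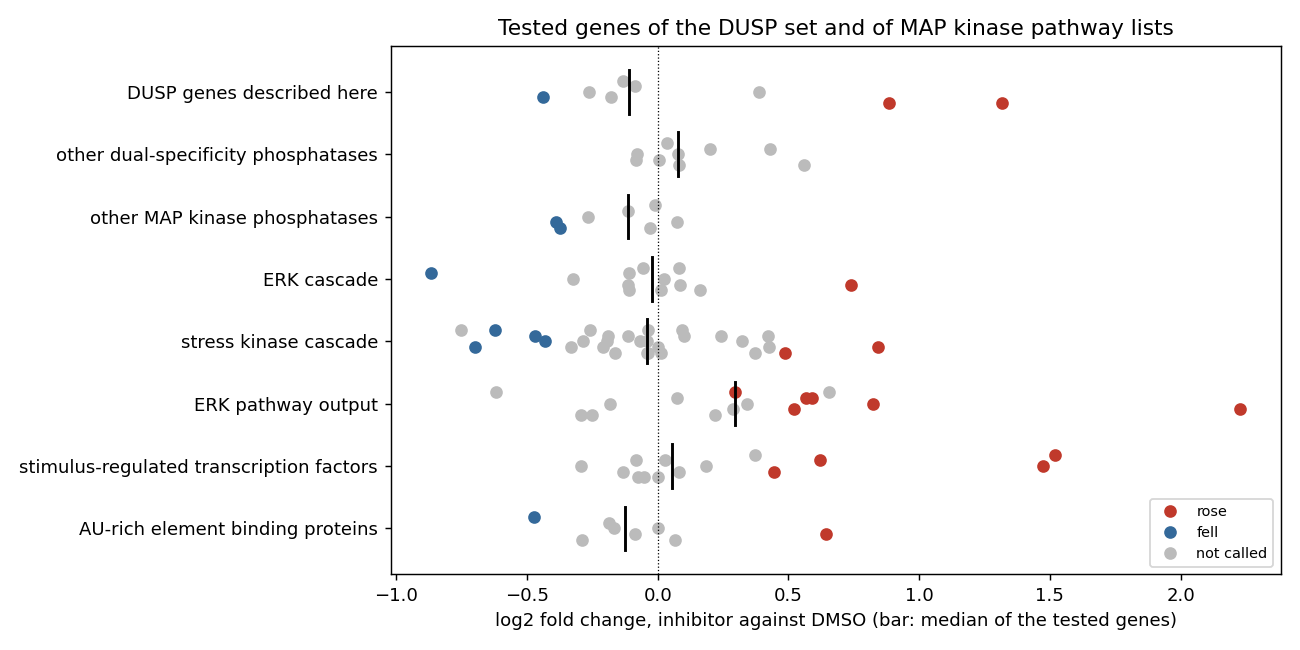
Log2 fold change of the tested genes of 8 sets (rows; points are genes, bars are medians), red for genes that rose, blue for genes that fell and grey for those not called. The median of the 8 DUSP genes is -0.11 and that of the ERK output genes is 0.30, the only set here with a median above 0.1. All sets were chosen with earlier results of these data known.

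The genes whose values over the 6 libraries lay closest to those of DUSP1 were SLC1A4 (distance 0.175), MORN4 (0.21) and FBXL8 (0.214), among 9235 genes that averaged 5 CPM or more over the 6 libraries. FBXL8 was at a mean of 7.45 CPM with the inhibitor and 3.06 CPM with DMSO, below 5 CPM in that group. Distance is Euclidean, on log2 CPM centred for each gene. SLC1A4, an amino acid transporter gene, rose by 1.41 ± 0.11 on the log2 scale, from a mean of 49.4 to 131 CPM. Closest to DUSP10 were FAM57A (0.0848), PINX1 (0.102) and USP39 (0.118). The choice of neighbours was not stable: leaving out 1 library kept 1 to 3 of the 3 for DUSP1 and 0 to 3 of the 3 for DUSP10.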

How the data were processed

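Per the labels' protocols, RNA was amplified with the Ion AmpliSeq Transcriptome panel and read on an Ion Proton. The deposited values are raw read counts per gene symbol, 1 table a library. HTSeq, DESeq2 1.20.0 and hg19 are named, without roles, in the submitters' processing notes. For the aligner, annotation and strand setting: not given in the sources used here. The count tables hold no positions, and promoters come from RefSeq on GRCh38.p14.

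Groups came from sample titles. The tables were fitted whole in R 4.3.3 with edgeR 4.0.16 (filterByExpr, TMM, quasi-likelihood test without covariates, Benjamini-Hochberg). The 11391 genes tested held 99.924% of the counts. SE is the log2 fold change over the square root of F. Between libraries of a group, counts differed beyond sampling noise (chi-square from 9.32 to 14.7 for each degree of freedom). If replicates were not separate cultures, p measures only the spread between these libraries. PCR reads are not independent molecules, so the floor of 3 counts covers counting error only. Log2 CPM for distances and class means used a prior count of 2.

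The members, classes and lists were chosen with earlier results of these data known. The naming rule takes all members, up to 3 called genes a direction from each list or, where none was called, the 2 with the smallest p, and 3 neighbours of the members with the largest rise and fall. Some listed genes are counted in their lists but not reported here by name. Alternatives were DESeq2 size factors, library totals, no filter, a minimum of 10 CPM, DESeq2 1.42.0, limma voom (3.58.1), a replicate block, thinned libraries and each library left out. In counts simulated for this comparison on 11316 genes, the test recovered 58% of genes with a log2 change of 0.5 and 94% at 1. Fewer genes were changed there than were called here, and their spread followed the mean count alone. These rates therefore need not hold for the DUSP genes.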

Additional observations from a re-analysis of the deposited data

How the results depend on the processing

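DUSP1, DUSP5 and DUSP10 kept their direction and their call under all 14 alternatives, with log2 fold changes of 1.22 to 1.44, 0.80 to 0.95 and -0.52 to -0.36. The number of DUSP genes that fell was 2 with library totals as the scaling, and 1 to 2 with 1 library left out. DUSP16 turned to 0.0056 in thinned libraries and to 0.0121 without DMSO replicate 2, and ran from -0.17 to 0.0121 with 1 library left out. The shift between the ERK-selective and stress-kinase-directed genes was 0.0848 without a filter, where DUSP6 enters, 0.78 with a minimum of 10 CPM, where DUSP10 alone stands for its class, 0.20 without DUSP10 and -0.15 without DUSP5. It was 0.35 to 0.42 with 1 library left out. With library totals, 2 ERK cascade genes, 3 ERK output genes and 2 genes for AU-rich element binding proteins fell. Without a filter, 1 other dual-specificity phosphatase rose, and 2 ERK cascade genes and 1 ERK output gene fell. With a minimum of 10 CPM, which leaves fewer genes to test, 0 ERK cascade genes fell and 2 transcription factor genes rose. With 1 library left out, 0 to 1 other dual-specificity phosphatases rose, 0 to 2 other MAP kinase phosphatases fell, 1 to 2 ERK cascade genes fell, 1 to 3 stress cascade genes rose, 0 to 1 ERK output genes fell, 0 to 1 transcription factor genes fell and 1 to 2 AU-rich element binding protein genes fell. Over all genes, 684 to 1133 rose and 721 to 1113 fell. Where no construction of the alternative is named, the cause was not tested.

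Deviations of same-numbered libraries from their group means correlated at 0.032, -0.017 and 0.007. With 3 libraries a group, this does not show whether libraries of 1 number were handled together. With the replicate block, 1 other dual-specificity phosphatase rose, 1086 genes rose and 1137 fell over all genes, and the same number of DUSP genes, 2 upward and 1 downward, was called. DUSP2 and DUSP6 did not pass the low-count filter and were both tested once that filter was dropped; 1 of the pair also passed it in 5 of the 6 fits that left out a library. Counts were also low for DUSP8 and DUSP16, whose SE was 0.20 and 0.19.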
